A study of Homo sapiens with 6 samples.

Results

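The lysosome genes described here are 43 genes listed by symbol: soluble hydrolases, membrane proteins, subunits of the proton pump, their regulators TFEB and TFE3, and progranulin (GRN). They were picked by function from the 58395 genes of the deposited table, and progranulin was put with them because it had been seen to be higher in CD20-positive cells, so its own difference is a description. The fits ran over all genes and hold it too, but its call supports nothing here. The list was made with results of these data known. RNA was measured in 6 libraries of M14, an established human melanoma line, which had been grown as floating spheres, broken up mechanically, stained for the B-cell surface antigen CD20 and sorted by flow cytometry. There were 3 CD20-positive and 3 CD20-negative libraries, and the labels name no treatment or genetic change in either group. All come from 1 line, and nothing in the labels says that the replicates were separate cultures, so p-values speak of the spread among these libraries alone, and that spread may be technical.

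Lysosomes break down proteins, sugars and lipids with acid hydrolases, which reach them through the Golgi by mannose 6-phosphate receptors or by other sorting receptors such as sortilin. A proton pump, the V-type ATPase, keeps their interior acid. Many of these genes are under the control of TFEB, TFE3 and the melanocyte factor MITF, related proteins that bind the motif CACGTG near gene starts. TFEB and TFE3 enter the nucleus when nutrient signalling through the kinase MTOR is low. Progranulin is a secreted glycoprotein that is brought to the lysosome by sortilin or together with prosaposin and is cut there into granulins.

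The libraries held 15651171 to 17479732 fragments in the CD20-positive group and 16666543 to 17915936 in the CD20-negative group. MS4A1, which encodes CD20, measured 1.24, 0.966 and 1.28 FPKM in CD20-positive libraries, against 0.225, 0.263 and 0.403 FPKM in CD20-negative libraries, without overlap and at a low level in both. Of 6 melanocyte markers 2 reached a mean of 1 FPKM, and SOX10, MLANA, TYR and DCT stayed below 0.263 FPKM in every library, so these 4 markers were near absent although the line is labelled melanoma. PMEL, a pigment-granule protein, measured 14.8, 29.5 and 33.8 FPKM in CD20-positive libraries, against 8.73, 19.2 and 17.0 FPKM in CD20-negative libraries. Of 4 epithelial markers 3 reached a mean of 1 FPKM. The keratin KRT8 measured 276, 205 and 199 FPKM in CD20-positive libraries, against 174, 226 and 193 FPKM in CD20-negative libraries. The keratin KRT18 averaged 193 and 181 FPKM in the 2 groups and EPCAM 3.81 and 3.72 FPKM. CDH1 was near absent, at most 0.121 FPKM in any library. Macrophages, which are rich in lysosomes, have 6 markers on the list used here, and 0 of them reached a mean of 1 FPKM. Their summed level was 0.110 to 0.440 FPKM in CD20-positive and 0.0268 to 0.156 FPKM in CD20-negative libraries, CD163 and AIF1 were listed at 0 (AIF1 in a stretch of chromosome 6 where most genes were), and the part of such RNA in the results was not tested. Genes of the mitochondrial genome took 20.6, 11.9 and 17.4% of the fragments in CD20-positive libraries and 4.25, 5.73 and 5.06% in CD20-negative libraries, for replicates 1, 2 and 3 in each case. Values below are FPKM, fragments scaled to exon length and to a library size set by the authors, and are given in that order of replicates. In bulk RNA, more cells with a transcript and more transcript per cell cannot be told apart.

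The start regions of 5 members are shown first, because several lysosome genes carry CACGTG there, a motif bound by TFEB and its relatives. Progranulin, the gene the list was built around, is among them and did not hold CACGTG in this window. Other sequences that these factors may bind were not searched for. Each runs from 250 bases before to 50 bases after the gene start, 5′ to 3′ on the strand of the gene, from RefSeq on GRCh38.p14. Capitals mark CACGTG, which reads the same on both strands.
GRN, chr17:44345052-44345351, plus strand: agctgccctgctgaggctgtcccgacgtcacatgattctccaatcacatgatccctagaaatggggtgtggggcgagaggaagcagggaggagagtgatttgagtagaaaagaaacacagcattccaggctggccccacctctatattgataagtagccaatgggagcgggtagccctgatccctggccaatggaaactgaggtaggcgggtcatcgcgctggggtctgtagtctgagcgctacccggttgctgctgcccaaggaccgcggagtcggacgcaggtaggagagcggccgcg
LAMP1, chr13:113296989-113297288, plus strand: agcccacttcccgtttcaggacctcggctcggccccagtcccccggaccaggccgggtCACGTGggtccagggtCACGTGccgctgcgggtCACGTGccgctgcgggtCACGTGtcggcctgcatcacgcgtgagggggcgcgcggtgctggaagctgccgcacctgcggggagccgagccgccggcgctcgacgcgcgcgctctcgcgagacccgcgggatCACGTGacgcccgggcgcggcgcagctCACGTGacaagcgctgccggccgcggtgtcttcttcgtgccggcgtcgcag
CTSA, chr20:45891085-45891384, plus strand: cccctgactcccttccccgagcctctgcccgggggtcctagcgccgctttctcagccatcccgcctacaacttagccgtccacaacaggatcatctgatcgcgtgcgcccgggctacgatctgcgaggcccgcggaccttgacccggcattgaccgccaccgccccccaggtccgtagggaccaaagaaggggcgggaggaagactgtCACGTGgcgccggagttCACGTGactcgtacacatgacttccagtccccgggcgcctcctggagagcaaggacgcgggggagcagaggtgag
CTSD, chr11:1763878-1764177, minus strand: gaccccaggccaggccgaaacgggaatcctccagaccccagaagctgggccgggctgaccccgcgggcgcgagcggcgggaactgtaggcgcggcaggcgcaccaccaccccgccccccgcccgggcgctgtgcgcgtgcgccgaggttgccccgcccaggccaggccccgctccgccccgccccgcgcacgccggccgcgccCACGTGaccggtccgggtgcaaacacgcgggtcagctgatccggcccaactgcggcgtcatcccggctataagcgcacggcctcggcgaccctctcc
GAA, chr17:80101331-80101630, plus strand: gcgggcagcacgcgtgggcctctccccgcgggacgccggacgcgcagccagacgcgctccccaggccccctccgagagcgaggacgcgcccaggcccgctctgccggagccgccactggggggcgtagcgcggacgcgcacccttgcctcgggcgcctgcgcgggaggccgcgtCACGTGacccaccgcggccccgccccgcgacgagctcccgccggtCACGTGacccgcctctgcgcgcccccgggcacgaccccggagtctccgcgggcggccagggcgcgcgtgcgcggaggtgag

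Of the 30 members with such a region in the table, 9 held CACGTG (30%), as did 10.9% of 15843 protein-coding genes and 8.77% of 27305 genes of all kinds. LAMP1, a major protein of the lysosomal membrane, held 6 copies, the others 1 or 2. The form TCACGTG, on either strand and part of the same sites, was found in the same share of members (30%) and in 5.83% of protein-coding genes. The 8 tested members with CACGTG had a median log2 change of 0.33 (-0.099 to 0.62), and the 21 tested members with a region but without it had 0.22 (-0.23 to 0.80). The 21 include progranulin, which was listed for its rise and has the value of 0.80. The difference between these 2 sets was not tested. A match describes the letters only, and says nothing of binding in these cells.

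**Figure D1:**
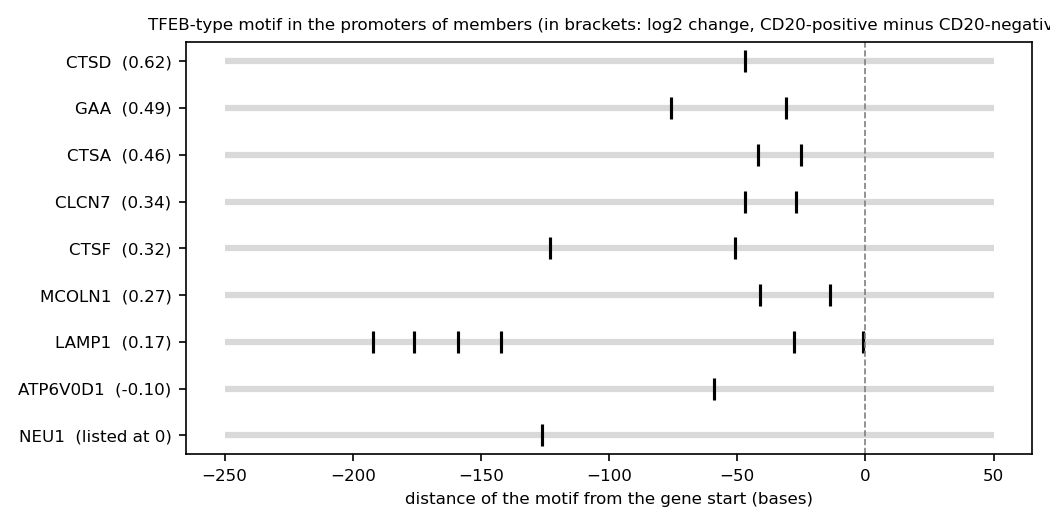
Positions of CACGTG (black ticks) between 250 bases before and 50 bases after the start of the 9 members that hold it. The 8 tested genes are ordered by their log2 change, CD20-positive minus CD20-negative, given in brackets, and NEU1, listed at 0 and not tested, stands last. LAMP1 holds 6 copies, with first bases from -192 to -1 relative to the start.

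Most of the listed members had higher estimates in CD20-positive cells, by small amounts. Of 42 estimates 28 changed sign, however, when each library was divided by its FPKM total. The group of 3 genes with progranulin is left out of a ranking of roles, since progranulin was listed for its rise. Among the other roles the median was highest for the glycosidases, sulfatases and lipid enzymes (0.36) and nearest 0 for the proton pump (0.015). Of the 43 members 42 reached a mean of 1 FPKM over the 6 libraries and were tested. The estimate was above 0 in CD20-positive cells for 34 of them and below 0 for 8, where 50.1% of all 13155 tested genes were above 0 and 49.9% below. Their median log2 change was 0.25, against 0.00025 over all tested genes, and it was 0.14 without CD20-positive replicate 1. Without progranulin 33 of 41 members were above 0, with a median of 0.22. On the scale of the FPKM total, in which the mitochondrial genes weigh heavily, the median of the members was -0.19 and that of all genes -0.41, so the members stood 0.22 above the rest there as well. The groups did not overlap for 17 members, 16 higher and 1 lower, where 8.87% of all tested genes were higher without overlap and 6.14% lower. The 3 pairs of equal replicate number pointed up for 26 members and down for 4, where 21.8% and 20.3% of all tested genes did so. Without progranulin, 15 of 41 members were higher without overlap and 25 had all 3 pairs pointing up.

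Single members rarely passed a test across all genes. The limma fit without a replicate block called 0 of 42 members (0.0076% of all tested genes were called). An unadjusted p under 0.05 was found for 10 members, progranulin among them, and for 9.2% of all genes. A second limma fit, which took equal replicate numbers as pairs and is named the paired fit here, called 4 of 42, all of them higher in CD20-positive cells: progranulin, which was listed for its rise, the sulfatase ARSA, the glucuronidase GUSB and the sphingomyelinase SMPD1. It called 3.19% of all tested genes higher and 2.64% lower. Leaving out progranulin, whose call the choice of the list had fixed, it called 3 of 41 members. Over genes with a mean of 10 FPKM or more it called 8 of 27 members, all higher (9.93% of genes were called higher there), the 4 just named and CTSA, CTSD, GAA and NAGLU. Without both libraries of replicate 1 it called 8 of 42 members, progranulin among them, all higher, where 7.74% of all tested genes were called higher. It called 0 members without those of replicate 2 (0% of all genes were called higher) and 0 without those of replicate 3 (1.32%). The limma fit weighs each gene's own spread against a spread pooled over genes, by its prior degrees of freedom. Their median was infinite at a mean of 10 and without replicate 1 or 3, so most calls there rest on the pooled spread. In the paired fit that called 4 of 42 members the median was 10.2, more than the number of libraries. Those calls thus lean on the pooled spread as well. With each gene's own spread alone, the paired fit called 0 members and 0 of all tested genes.

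At the median, the transcripts of the members were richer in G and C than those of all tested genes. Median changes rose with GC content, both over all tested genes and over the members. The part of GC content in the members' changes was not tested. Their longest transcripts had a median GC content of 53.1%, against 49.1% over all tested genes. In 4 equal bins of GC content from low to high, the median log2 change of all tested genes was -0.062, -0.047, 0.0094 and 0.13, and that of the 8, 6, 12 and 16 members in these bins was 0.017, 0.039, 0.29 and 0.36. After each library was corrected for transcript length and GC content, the median of the members was 0.18 and that of all genes -0.0090, and the paired fit called 0 members (0.419% of all genes were called higher and 0.19% lower, 0.609% in all). ARSA then had a log2 change of 0.54 (adjusted p = 0.0532, limma with the block), GUSB 0.60 (0.0578) and SMPD1 0.48 (0.0582). Their SEs in the paired fit were 0.0798, 0.0994 and 0.0794 after the correction, against 0.147, 0.143 and 0.142 before it. The median prior degrees of freedom of that fit were 3.79 after the correction, against 10.2 before it. What removed the calls was not tested.

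**Figure D2:**
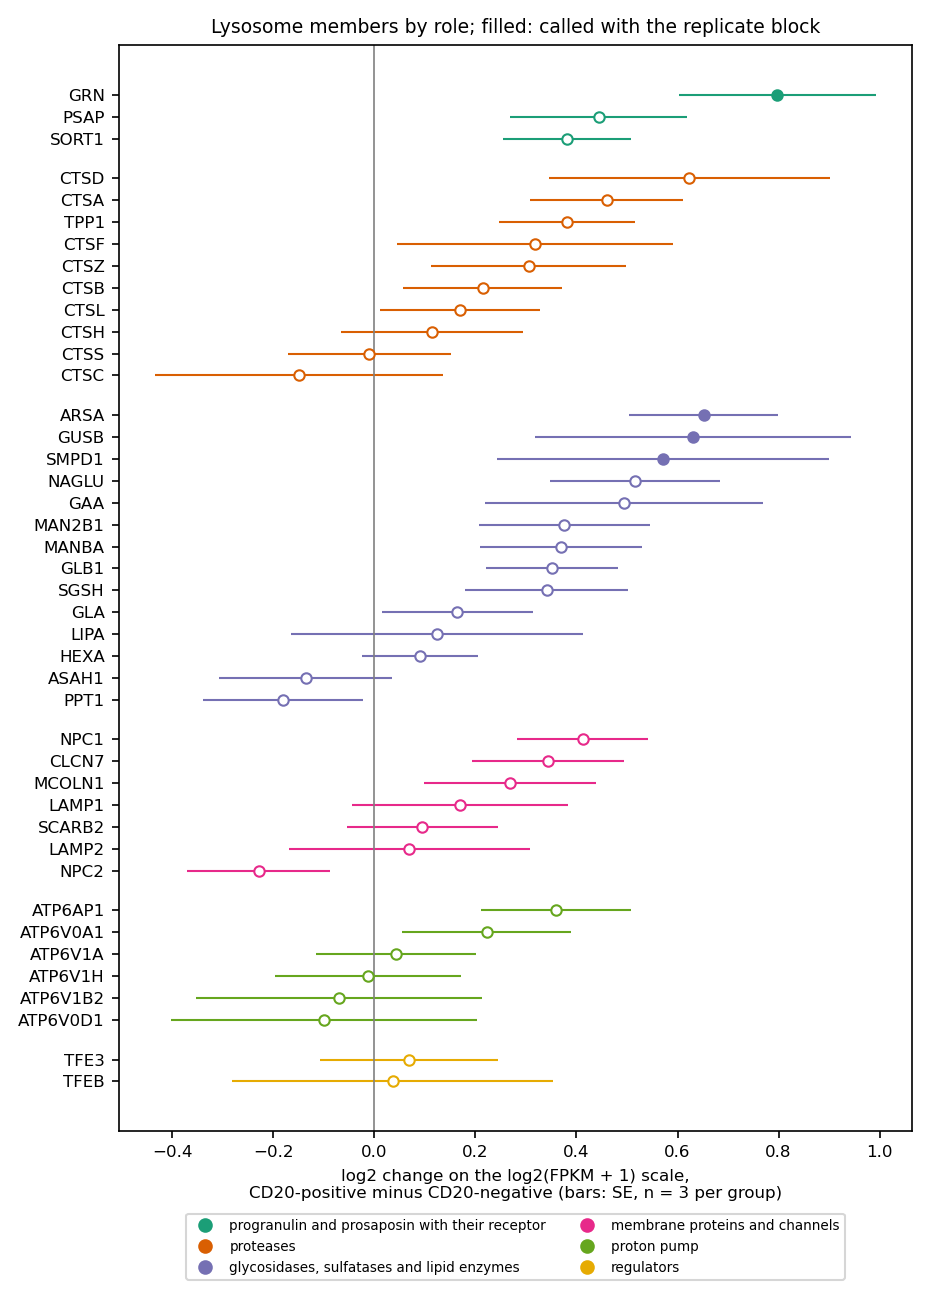
The log2 change of the 42 tested members on the log2(FPKM + 1) scale, CD20-positive minus CD20-negative, with its SE from the fit without the block (n = 3 libraries per group), grouped and coloured by role. Filled points are the 4 members called with the replicate block. Estimates run from -0.23 for NPC2 to 0.80 for GRN.

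Progranulin, prosaposin and their receptor each had all CD20-positive libraries above all CD20-negative ones. GRN (ENSG00000030582, GRCh38 chromosome 17, 44345086 to 44353102) measured 229, 179 and 229.7 FPKM in CD20-positive libraries, against 108, 141 and 116 FPKM in CD20-negative libraries. The lowest CD20-positive library, replicate 2, lay above the highest CD20-negative one, also replicate 2, and the ratio of the means was 1.74. The pair ratios were 2.11, 1.27 and 1.98. Its level rested on 10579 to 13366 fragments in CD20-positive and 7497 to 9256 in CD20-negative libraries. Within each group, replicate 2 against the others went the way of the mitochondrial share: in CD20-positive cells it had the lowest GRN level and the lowest share, in CD20-negative cells the highest of both. The part of that share in the GRN values was not tested.

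PSAP, which encodes prosaposin, the precursor of the saposins, which help enzymes reach their lipids, was the most abundant member. It measured 404, 363 and 359 FPKM in CD20-positive libraries, against 271, 291 and 263 FPKM in CD20-negative libraries, a ratio of means of 1.36, with no overlap. The change of 0.44 ± 0.18 (SE) was not called by limma (adjusted p = 0.518, and 0.261 with the block). SORT1, the sortilin receptor that takes progranulin into the cell, was 1.35-fold higher in the means at a low level. It measured 7.24, 7.82 and 7.26 FPKM in CD20-positive libraries, against 6.15, 5.07 and 5.26 FPKM in CD20-negative libraries, also without overlap, and was not called (limma, adjusted p = 0.451, and 0.121 with the block).

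The 5 protein-coding genes of 4206 with a mean of at least 10 FPKM whose log2 levels followed GRN most closely over the 6 libraries were LTBP3 (Pearson r = 0.999), XYLT2 (0.997), TCF25, FASTK and PPP1R13L (0.992). LTBP3, which binds latent TGF-beta, measured 26.1, 19.96 and 25.4 FPKM in CD20-positive libraries, against 11.8, 14.9 and 12.6 FPKM in CD20-negative libraries. Among the members ARSA came closest, in 17th place (r = 0.987), followed by PSAP in 129th (0.951). These values share libraries and the group difference and describe likeness only.

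**Figure D3:**
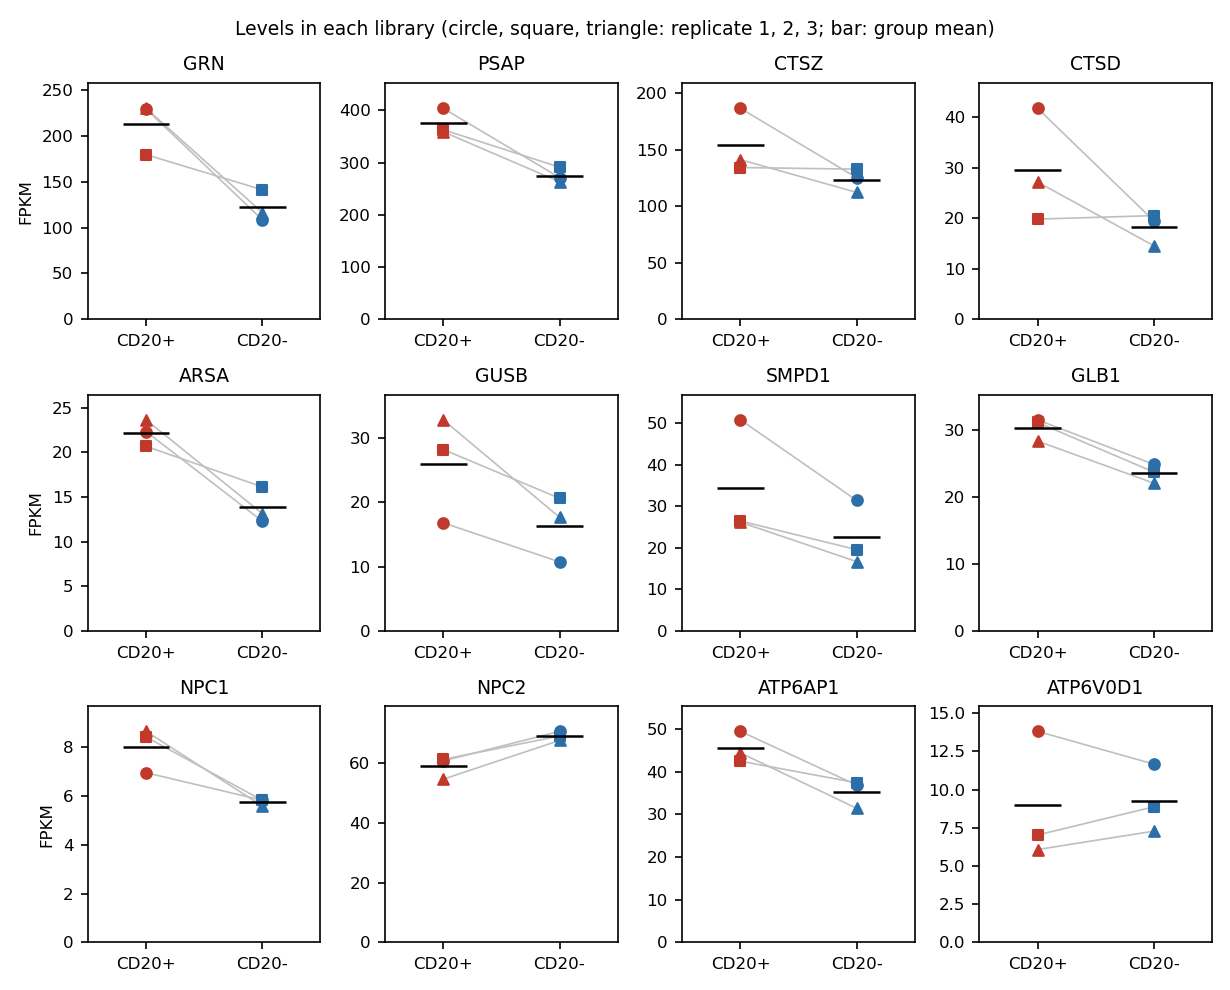
FPKM of 12 members in each library, CD20-positive on the left of each panel and CD20-negative on the right, with grey lines joining equal replicate numbers and black bars at the group means. GRN lies between 179 and 229.7 FPKM in CD20-positive libraries and between 108 and 141 FPKM in CD20-negative libraries. GUSB and SMPD1 overlap between groups but fall along each of the 3 lines.

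Among the 10 proteases the estimate was above 0 for 8 and below 0 for 2 (median 0.26). Of the 10, 3 were higher without overlap, as were 8.87% of all tested genes, and 0 were called in either fit. CTSZ, a carboxypeptidase, had the highest level of the proteases. It measured 186, 134 and 141 FPKM in CD20-positive libraries, against 125, 133 and 112 FPKM in CD20-negative libraries, and the second pair was nearly level (pair ratios 1.49, 1.01 and 1.26). CTSA, which protects beta-galactosidase and neuraminidase in a complex, measured 27.2, 22.3 and 24.6 FPKM in CD20-positive libraries, against 18.8, 19.2 and 15.2 FPKM in CD20-negative libraries, all CD20-positive libraries above all others. Its change was 0.46 ± 0.15 (SE) (limma, adjusted p = 0.451, and 0.0871 with the block). Of its exon bases 3.42% are shared with PLTP on the other strand, and whether the counting used strand is not given. TPP1, a tripeptidyl peptidase, measured 31.7, 30.6 and 31.4 FPKM in CD20-positive libraries, against 25.1, 25.2 and 21.2 FPKM in CD20-negative libraries, a narrow range in CD20-positive cells.

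CTSD, the main aspartyl protease of the lysosome, had the largest estimate of the proteases, 0.62 ± 0.28 (SE). It measured 41.8, 19.9 and 27.2 FPKM in CD20-positive libraries, against 19.5, 20.5 and 14.6 FPKM in CD20-negative libraries. The pair ratios were 2.14, 0.966 and 1.87, so the second pair pointed slightly down, and neither fit called a change (limma, adjusted p = 0.554, and 0.136 with the block). CTSL, a cysteine protease of broad use, measured 38.0, 32.1 and 30.7 FPKM in CD20-positive libraries, against 32.8, 30.7 and 25.9 FPKM in CD20-negative libraries, and the groups overlapped. CTSF, another cysteine protease, measured 15.7, 22.0 and 26.9 FPKM in CD20-positive libraries, against 11.6, 20.1 and 19.8 FPKM in CD20-negative libraries, with replicate 1 low in both groups. CTSB, a cysteine protease abundant in many tumours, was listed at 5.93, 4.72 and 4.53 FPKM in CD20-positive libraries, against 5.02, 3.65 and 4.02 FPKM in CD20-negative libraries. CTSC, which activates serine proteases of immune cells, was lower in each pair, with 16.1, 8.86 and 9.04 FPKM in CD20-positive libraries, against 17.1, 10.3 and 10.2 FPKM in CD20-negative libraries, and replicate 1 was high in both groups. CTSH, an aminopeptidase, and CTSS, known from antigen-presenting cells, had means of 1.06 to 1.70 FPKM in either group and estimates of 0.11 and -0.0095.

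Enzymes that split sugars, sulfates and lipids held 3 of the 4 calls. The paired fit called 3.19% of all tested genes higher. Of 15 genes of this class 14 were tested, 12 with an estimate above 0 and 2 below (median 0.36), and 6 were higher without overlap. Of all tested genes 50.1% had an estimate above 0 and 8.87% were higher without overlap. ARSA (ENSG00000100299, GRCh38 chromosome 22, 50622754 to 50628173), arylsulfatase A, which removes sulfate from the myelin lipid sulfatide, measured 22.3, 20.7 and 23.6 FPKM in CD20-positive libraries, against 12.3, 16.1 and 13.1 FPKM in CD20-negative libraries. The groups did not overlap, the pair ratios were 1.82, 1.28 and 1.80, and the log2 change was 0.65 ± 0.15 (SE) (limma, adjusted p = 0.286, and 0.0264 with the block). It averaged 22.2 ± 1.49 FPKM in CD20-positive libraries and 13.8 ± 2.02 FPKM in CD20-negative libraries (SD, n = 3 each).

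GUSB (ENSG00000169919, GRCh38 chromosome 7, 65960684 to 65982314), beta-glucuronidase, often used as a reference gene in quantitative PCR, measured 16.8, 28.2 and 32.8 FPKM in CD20-positive libraries, against 10.7, 20.6 and 17.6 FPKM in CD20-negative libraries. Replicate 1 was low in both groups, so the groups overlapped while the pair ratios were 1.56, 1.37 and 1.86. Its log2 change of 0.63 ± 0.31 (SE) was called with the block alone (limma, adjusted p = 0.0268, against 0.606 without it). The annotation holds 18 pseudogenes named after GUSB, with a summed mean of 6.15 FPKM, so reads may be split between them and its level is uncertain.

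SMPD1 (ENSG00000166311, GRCh38 chromosome 11, 6390431 to 6394998), acid sphingomyelinase, showed the opposite replicate pattern. It measured 50.8, 26.4 and 26.2 FPKM in CD20-positive libraries, against 31.4, 19.5 and 16.7 FPKM in CD20-negative libraries, with replicate 1 high in both groups and CD20-negative replicate 1 above 2 of the CD20-positive libraries. Within pairs the ratios were 1.62, 1.35 and 1.57, and the change of 0.57 ± 0.33 (SE) was called with the block alone (limma, adjusted p = 0.0370, against 0.641 without it).

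NAGLU, which splits N-acetylglucosamine from heparan sulfate, measured 22.7, 16.5 and 20.7 FPKM in CD20-positive libraries, against 14.8, 14.3 and 11.7 FPKM in CD20-negative libraries, without overlap (limma, adjusted p = 0.444, and 0.0641 with the block). SGSH, the sulfamidase of the same pathway, measured 15.4, 16.4 and 20.6 FPKM in CD20-positive libraries, against 12.1, 15.2 and 13.2 FPKM in CD20-negative libraries, again without overlap. GAA, which breaks down glycogen in the lysosome, measured 38.5, 51.2 and 69.5 FPKM in CD20-positive libraries, against 26.9, 44.5 and 40.1 FPKM in CD20-negative libraries. Replicate 1 was low in both groups, and the pair ratios were 1.43, 1.15 and 1.74. GLB1, beta-galactosidase, whose activity is used as a stain for senescent cells, was even within groups, at 31.4, 31.1 and 28.3 FPKM in CD20-positive libraries, against 24.8, 23.7 and 22.0 FPKM in CD20-negative libraries. MANBA, a beta-mannosidase, measured 6.27, 4.95 and 5.01 FPKM in CD20-positive libraries, against 4.83, 3.43 and 3.66 FPKM in CD20-negative libraries, and the alpha-mannosidase MAN2B1 7.18, 6.78 and 8.04 FPKM in CD20-positive libraries, against 4.36, 6.81 and 5.29 FPKM in CD20-negative libraries. GLB1 and MANBA were higher without overlap, while the groups of GAA and MAN2B1 overlapped.

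Other enzymes of this class differed less or the other way. HEXA, a subunit of the enzyme that degrades the ganglioside GM2, was higher without overlap but by little, at 3.18, 3.30 and 3.20 FPKM in CD20-positive libraries, against 3.10, 2.95 and 2.86 FPKM in CD20-negative libraries. GLA, an alpha-galactosidase, had the highest mean of the class, at 57.5, 51.8 and 50.2 FPKM in CD20-positive libraries, against 52.2, 46.5 and 43.4 FPKM in CD20-negative libraries, with overlap. PPT1, a palmitoyl thioesterase, and ASAH1, acid ceramidase, were lower in each pair, with estimates of -0.18 and -0.14, and neither was called. PPT1 shares 23.4% of its exon bases with CAP1 on the other strand, so its value is uncertain. LIPA, acid lipase, ranged from 13.2 to 19.5 FPKM in CD20-positive and from 10.6 to 22.6 FPKM in CD20-negative libraries.

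NEU1, a sialidase, was listed at 0 in all 6 libraries. Of the 70 protein-coding genes that lie within 500 kb of it on chromosome 6, 59 (84.3%) were listed at 0 in all libraries, where 20.5% of all protein-coding genes were. No level of NEU1 is drawn from these zeros, nor of the macrophage marker AIF1, which lies in the same stretch.

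Among membrane proteins, channels and cholesterol carriers the median log2 change was 0.17, with 6 estimates above 0 and 1 below, and 0 of 7 were called in either fit. NPC1 and NPC2, partners that pass cholesterol out of the lysosome, pointed in opposite directions. NPC1, the membrane protein, measured 6.95, 8.42 and 8.65 FPKM in CD20-positive libraries, against 5.82, 5.82 and 5.58 FPKM in CD20-negative libraries, higher without overlap (limma, adjusted p = 0.427, and 0.0972 with the block). NPC2, the soluble carrier, measured 60.7, 61.3 and 54.6 FPKM in CD20-positive libraries, against 70.7, 69.1 and 67.6 FPKM in CD20-negative libraries, lower without overlap, with a log2 change of -0.23 ± 0.14 (SE) (limma, adjusted p = 0.658, and 0.436 with the block). The difference between the 2 genes was not tested. Shared exon bases with a gene on the other strand were 5.98% for NPC1 and 3.75% for NPC2.

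CLCN7, a chloride and proton exchanger, measured 13.5, 13.7 and 17.0 FPKM in CD20-positive libraries, against 10.2, 12.7 and 11.2 FPKM in CD20-negative libraries, without overlap. MCOLN1, the calcium channel that signals to TFEB, measured 6.02, 4.64 and 4.49 FPKM in CD20-positive libraries, against 4.46, 4.47 and 3.17 FPKM in CD20-negative libraries, without overlap by a margin in the second decimal. LAMP1, with 6 motif copies in its start region, measured 48.0, 34.5 and 33.3 FPKM in CD20-positive libraries, against 41.9, 32.5 and 28.2 FPKM in CD20-negative libraries, with overlap and replicate 1 high in both groups. LAMP2, which takes part in the fusion of autophagosomes with lysosomes, ranged from 19.6 to 24.0 FPKM in CD20-positive and from 15.8 to 30.2 FPKM in CD20-negative libraries. SCARB2, a membrane protein that also sorts cargo to the lysosome, had an estimate of 0.095 and also overlapped.

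The 6 members of the proton pump had 3 estimates above 0 and 3 below (median 0.015), and 0 were called. The difference between this group and the enzymes was not tested. ATP6AP1, an accessory subunit needed for assembly, was the most abundant and the one pump member without overlap. It measured 49.5, 42.5 and 44.4 FPKM in CD20-positive libraries, against 36.9, 37.4 and 31.5 FPKM in CD20-negative libraries (limma, adjusted p = 0.526, and 0.186 with the block). ATP6V0A1, of the membrane sector, measured 4.43, 3.26 and 3.40 FPKM in CD20-positive libraries, against 3.60, 3.05 and 2.44 FPKM in CD20-negative libraries, higher in each pair. ATP6V1A and ATP6V1B2, which form the ATP-cleaving head, had estimates of 0.044 and -0.07, and the connecting subunits ATP6V1H and ATP6V0D1 had -0.013 and -0.099. ATP6V1A measured 18.2, 15.5 and 13.8 FPKM in CD20-positive libraries, against 16.9, 13.3 and 15.7 FPKM in CD20-negative libraries, with no separation. For 5 of the 6 pump members replicate 1 was the high one in both groups.

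The 2 transcription factors showed no separation between groups. TFEB measured 4.97, 1.97 and 1.75 FPKM in CD20-positive libraries, against 3.21, 2.74 and 1.86 FPKM in CD20-negative libraries, with the highest value in replicate 1 of each group. TFE3 was more abundant per length and measured 35.3, 24.7 and 25.2 FPKM in CD20-positive libraries, against 27.2, 28.2 and 24.8 FPKM in CD20-negative libraries. Estimates were 0.036 ± 0.32 (SE) for TFEB and 0.069 ± 0.18 (SE) for TFE3, and neither was called (limma, adjusted p = 0.982 and 0.935). Transcript levels do not report where the proteins are in the cell.

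**Figure D4:**
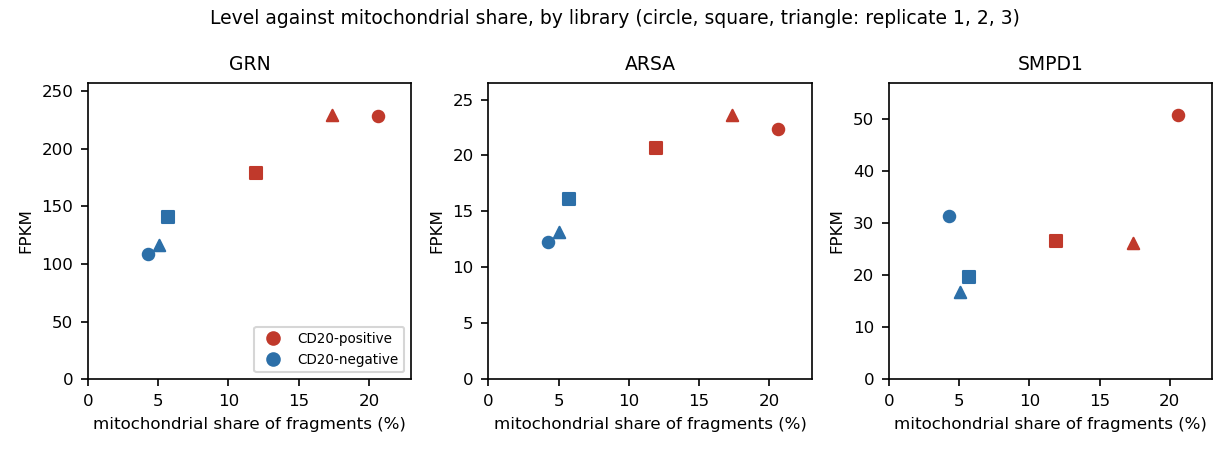
FPKM of GRN, ARSA and SMPD1 in each library against the share of fragments from mitochondrial genes (%), CD20-positive in red and CD20-negative in blue, with circle, square and triangle for replicates 1, 2 and 3. GRN and ARSA are lowest at the lowest share, 4.25%, and the CD20-positive libraries lie right of and above the CD20-negative ones. For SMPD1 the 2 libraries of replicate 1 lie highest in their groups.

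Replicate 1 stood apart from the others in many members, in both groups alike. In 17 of 42 both replicate 1 libraries were above the other 4, and in 3 both were below (CTSF, GAA and GUSB), where 23.5% and 20.8% of all tested genes were so. The 17 took in 5 of the 6 pump members. The median log2 change of the members was 0.31, 0.14 and 0.34 in pairs 1, 2 and 3.

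Of 80 further lysosome genes 67 were tested, with 38 estimates above 0 and 29 below, a more even split than among the members. The paired fit called 3 of them higher and 1 lower, where it called 3.19% and 2.64% of all tested genes, and their median log2 change was 0.050. With each library corrected for GC content and length, 1 of these 4 calls was left, LRP1 with a log2 change of 0.84 (adjusted p = 0.0436, limma with the block), while IDUA (0.0665), PLD3 (0.0631) and LAMTOR5 (0.0573) missed the threshold. Further enzymes and their activators had 13 of 16 estimates above 0 (median 0.21), and the paired fit called IDUA and PLD3. IDUA, which splits iduronic acid from heparan and dermatan sulfate, measured 13.8, 15.4 and 22.6 FPKM in CD20-positive libraries, against 7.82, 11.9 and 9.28 FPKM in CD20-negative libraries, without overlap (limma, adjusted p = 0.375, and 0.0236 with the block). PLD3, a lysosomal nuclease, measured 57.8, 51.0 and 72.2 FPKM in CD20-positive libraries, against 30.4, 43.3 and 38.1 FPKM in CD20-negative libraries, without overlap (adjusted p = 0.0408, limma with the block). ACP2, an acid phosphatase, measured 34.3, 21.6 and 23.7 FPKM in CD20-positive libraries, against 20.4, 18.1 and 14.7 FPKM in CD20-negative libraries. GALC was listed at 0 in all libraries.

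Among further membrane and sorting genes 13 of 19 estimates were above 0 (median 0.075). LRP1, an endocytic receptor that takes up prosaposin among many ligands, measured 13.0, 17.6 and 24.1 FPKM in CD20-positive libraries, against 6.34, 8.78 and 10.7 FPKM in CD20-negative libraries, and every CD20-positive library lay above every CD20-negative one. Its log2 change was 0.99 ± 0.26 (SE) (limma, adjusted p = 0.349, and 0.00303 with the block). IGF2R, a mannose 6-phosphate receptor for lysosomal enzymes, measured 16.03, 15.3 and 14.2 FPKM in CD20-positive libraries, against 10.9, 10.6 and 11.5 FPKM in CD20-negative libraries, without overlap (adjusted p = 0.0848, limma with the block). TMEM192, a lysosomal membrane protein, was lower without overlap, at 2.11, 2.45 and 1.97 FPKM in CD20-positive libraries, against 3.41, 3.31 and 3.16 FPKM in CD20-negative libraries. CD63, a tetraspanin of late endosomes with the highest level of the list, measured 233, 159.8 and 159 FPKM in CD20-positive libraries, against 208, 179.5 and 156 FPKM in CD20-negative libraries.

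The other 10 pump subunits had 8 estimates below 0 (median -0.23) and 0 calls. ATP6V1F, of the soluble sector, measured 97.7, 42.2 and 45.2 FPKM in CD20-positive libraries, against 102, 73.5 and 71.9 FPKM in CD20-negative libraries, lower in each pair but with overlap. ATP6V0C, which forms the proton ring, measured 4.86, 3.33 and 4.26 FPKM in CD20-positive libraries, against 7.60, 3.86 and 4.66 FPKM in CD20-negative libraries, and ATP6V1C1 had an estimate of -0.19. These subunits have short transcripts, with a median of 1639 bases against 3093 over all tested genes. The 3284 genes with the shortest transcripts, up to 1762 bases, had a median log2 change of -0.10.

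In the list of regulators 8 of 20 estimates were above 0 and 12 below (median -0.11). RPTOR, the scaffold of the MTOR complex, measured 19.4, 15.8 and 16.8 FPKM in CD20-positive libraries, against 13.5, 13.0 and 12.4 FPKM in CD20-negative libraries. RRAGA, a GTPase that brings it to the lysosome, measured 41.8, 44.0 and 36.2 FPKM in CD20-positive libraries, against 33.9, 31.8 and 29.5 FPKM in CD20-negative libraries. FLCN, which acts on such GTPases, measured 3.12, 2.81 and 2.69 FPKM in CD20-positive libraries, against 2.04, 2.42 and 1.96 FPKM in CD20-negative libraries. All 3 were higher without overlap and none was called. LAMTOR1 to LAMTOR5, which anchor those GTPases to the membrane, had estimates of -0.65 to -0.33 and were picked out after their values were seen. LAMTOR5 was called lower with the block, at 18.5, 10.4 and 8.98 FPKM in CD20-positive libraries, against 25.4, 17.2 and 16.7 FPKM in CD20-negative libraries (limma, adjusted p = 0.0216, and 0.553 without it). LAMTOR2 measured 57.5, 27.2 and 25.3 FPKM in CD20-positive libraries, against 62.6, 52.1 and 45.9 FPKM in CD20-negative libraries, lower in each pair and not called. MITF measured 2.21, 2.19 and 1.72 FPKM in CD20-positive libraries, against 2.07, 2.16 and 2.34 FPKM in CD20-negative libraries, with overlap.

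**Figure D5:**
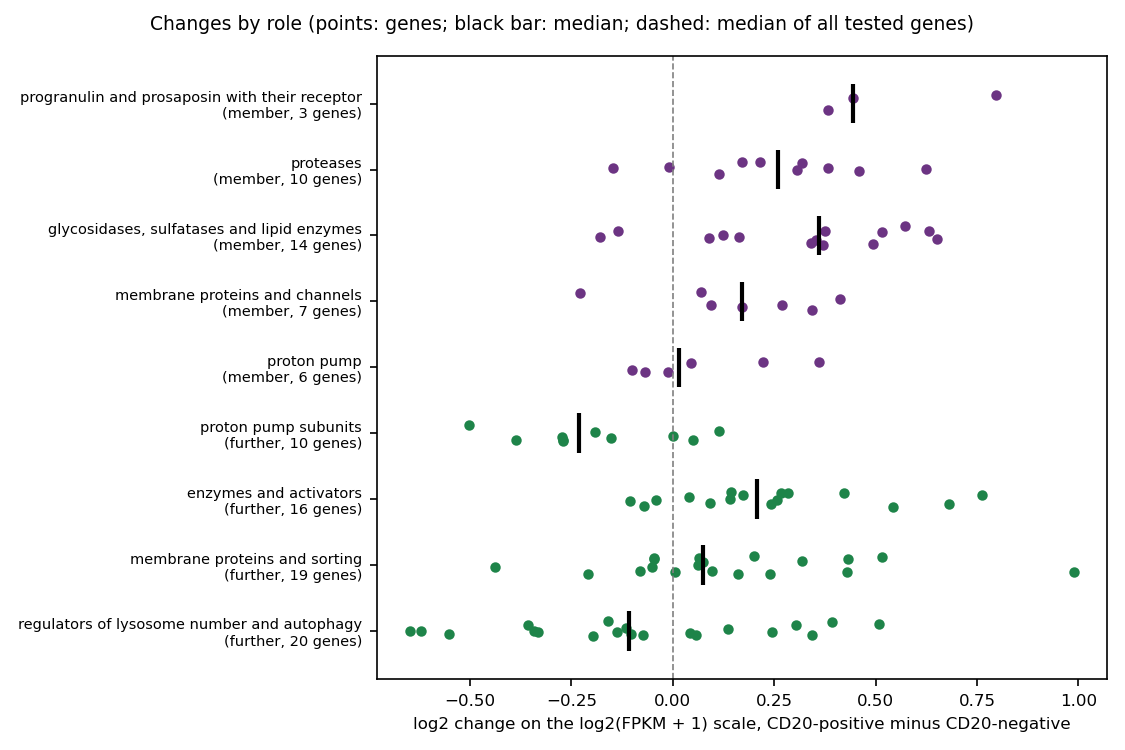
The log2 change on the log2(FPKM + 1) scale, CD20-positive minus CD20-negative, of every tested gene in each role group with at least 3 tested genes, members in purple and further genes in green. Black bars mark the medians, which run from -0.23 for the further pump subunits to 0.44 for progranulin, prosaposin and sortilin. That last group holds progranulin, which was listed for its rise. The dashed line marks the median of all tested genes.

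Of the proteins that process progranulin, SLPI, a secreted inhibitor that binds it and shields it from elastase, was the most abundant. It measured 552, 853 and 833 FPKM in CD20-positive libraries, against 544, 809 and 815 FPKM in CD20-negative libraries, with replicate 1 low in both groups and a change of 0.043 ± 0.28 (SE). The elastases ELANE and PRTN3 and the metalloproteases MMP12 and MMP14 were below 0.18 FPKM in every library. ADAMTS7 measured 1.90, 1.61 and 2.23 FPKM in CD20-positive libraries, against 1.29, 1.38 and 1.52 FPKM in CD20-negative libraries, higher without overlap and not called (limma, adjusted p = 0.620).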

How the data were processed

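The deposited table gives 1 value per gene and library with no unit in its header. The unit was read from the values: multiplied by the exon length of the gene in GENCODE release 29, 98.1 to 98.6% of low values (up to 20 fragments, tolerance 0.02) were whole multiples of 1 step per library. The deposited values are thus FPKM, computed by the authors with library sizes 0.864 to 1.10 times the recovered fragment totals. HISAT2, featureCounts 1.5.0, DESeq2 and GRCh38 are named in the submitters' processing notes. Their settings and strand use were not given in the sources used here. GENCODE 29 matched 58275 identifiers and left 120 without a match. Levels of different genes depend on the exon length counted, which joins all annotated transcripts.

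The test took genes whose mean over all libraries reached 1 FPKM and used log2(FPKM + 1) with limma 3.58.1 (trend, robust, no block) in R 4.3.3, with Benjamini-Hochberg adjustment over all of them and a threshold of 0.05. A fold change on this scale understates that of low genes. The fit was tested on simulated data that held no replicate effect and the same spread setting for every gene. That test therefore says nothing of the pairing. Replicate numbers were taken as pairing the samples, although the labels state no pairing. Deviations from the group means correlated at 0.67, 0.24 and 0.51 between equal numbers, each over 0.1. CD20-positive replicate 2 correlated better with CD20-negative replicate 3 (0.40). CD20-positive replicate 3 correlated with CD20-negative replicate 2 at 0.43, so the matching of replicates 2 and 3 is unsettled. The pairing was judged on the same values that the paired fit tested, and the calls of that fit rest on it. The members and lists were chosen with earlier results of these data known. Values in every library were given for progranulin, for the 2 members with the smallest p and the 2 with the highest mean of each role, for called members, for those without overlap, and for up to 4 genes of each further list. LAMTOR5, MITF and some members outside these rules, such as CTSB and CTSC, were also given in full.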

Additional observations from a re-analysis of the deposited data

How the results depend on the processing

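Settings that join the block with a second choice other than leaving out a pair, and those that correct for GC and length, were chosen after seeing the data. Every other setting below had been planned. Without the block, 1 gene of 13155 was called. This became 767 with the replicate block, 2 with pseudocount 10, 0 with no filter, voom or the length and GC correction, 9 with quantile normalisation and 1383 with the FPKM total. Leaving out 1 library gave 0 to 322, the most without CD20-positive replicate 1. With the block, all genes called were 954 at a mean of 10, 0 with no filter or each gene's own spread, 3924 with the FPKM total, 943 with that total outside the mitochondrial genome, 914 with quantile normalisation, 1555 with voom, 716 with pseudocount 0.1 and 80 after the length and GC correction. Without a replicate in both groups it called 2141, 1 and 331 for replicates 1, 2 and 3. At a mean of 10, with voom and without replicate 1 or 3, these calls rest mostly on a spread pooled over genes. The median prior degrees of freedom were 296 with voom and infinite in the other 3 settings.

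Members called were 0 without the block and 1 with the FPKM total (NPC2, lower), where 1355 of 13155 genes were called lower. With the replicate block they were 4, all higher, where 420 of 13155 genes were called higher. Other settings with the block, with all genes called higher in brackets, gave 4 with pseudocount 0.1 (402) and 5 with quantile normalisation (484). They gave 8 of 27 at a mean of 10 (447 of 4503) and 8 with the total outside the mitochondrial genome (685). Voom gave 10 (868 of 13141), and all these members were higher. With the FPKM total they were 6, all lower (NPC2, PPT1, ATP6V1B2, CTSC, ATP6V0D1 and ASAH1), where 3834 of 13155 genes were called lower. They were 0 with no filter, each gene's own spread or the length and GC correction. Without a replicate in both groups they were 0 to 8, and without 1 library and no block 0. The median over the members was 0.14 to 0.34 in settings other than the FPKM total, where it was -0.19, with and without the block, and all genes stood at -0.41. Leaving out libraries gave 0.14 (without CD20-positive replicate 1) to 0.30.

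Of the estimates of single members, 28 of 42 changed sign with the FPKM total. Those beyond their SE on both sides were CTSB (-0.21), CTSL (-0.33), CTSZ (-0.21) and GLA (-0.34). CD63 turned to -0.51 there and was called with the block. In the 29 alternatives GRN kept an estimate above 0 (0.28 to 1.02), as did ARSA (0.16 to 0.81), GUSB (0.14 to 0.90) and SMPD1 (0.071 to 0.83). ARSA had an adjusted p of 0.00934 to 0.214 without 1 pair in the paired fit. What caused these shifts was not tested.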
